A study of Mus musculus with 49 samples.

Results

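The genes described here are the 10 whose products are measured in urine or blood as biomarkers of kidney injury: Havcr1, Lcn2, Clu, Spp1, Cst3, Timp2, Igfbp7, Il18, Fabp1 and Tff3. They were taken by gene symbol from a table of 43309 genes. The choice applied no threshold to measured values, but it was made with earlier results of these data known. Each symbol matched 1 row. Expression was given as FPKM, fragments scaled to transcript length and to the mapped reads of the library, so levels can be set side by side between genes. Of the 10 genes, 9 had a value of 1 FPKM or above in 3 or more of the 49 libraries and were tested among 14895 genes. Tff3 did not reach it and is described by its values only.

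The libraries came from whole kidneys of male C57BL/6NCrl mice in 16 groups of 3 biological replicates, with 4 in IRI6m. In the IRI groups both renal pedicles were clamped for 21 minutes at 10 to 12 weeks of age, and kidneys were taken 2, 4, 24, 48 and 72 hours, 7, 14 and 28 days, and 6 and 12 months after reperfusion (IRI2h to IRI12m). Mice with a sham operation gave kidneys 4 hours, 24 hours or 12 months later (SHAM4h, SHAM24h and SHAM12m), and mice that had no operation gave kidneys at an age of 3, 9 or 15 months (NORM3m, NORM9m and NORM15m). SHAM4h was the control for the 2- and 4-hour IRI groups and SHAM24h for those of 24 hours to 28 days. SHAM12m was the control for those of 6 and 12 months. The comparisons within each of these sets therefore share their control kidneys. At 2 hours, from 48 hours to 28 days and at 6 months the sham kidneys were taken at another time. The late IRI groups hold only mice that survived to that time. SHAM12m replicate 3 carries 1 source label that names IRI, while its title, description and surgery label give sham surgery, and it was treated as a sham kidney.

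In an injured nephron, proximal tubule cells lose their brush border, flatten, and switch on genes that are silent in a resting tubule. Some of the encoded proteins are shed or secreted into the tubule lumen, which is why they can be read in urine. Others are made all the time by many cells and reach urine or plasma when filtration, reabsorption or the cell cycle of the tubule is disturbed, so their messenger RNA need not move with the protein.

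Read depth, estimated from the steps between low FPKM values, fell into 3 ranges that follow the groups: 10633049 to 23723162 reads in the NORM and IRI6m libraries, 70226445 to 88583375 in the SHAM12m and IRI12m libraries, and 38247353 to 52292503 in the other 30. IRI6m against SHAM12m, IRI28d or IRI12m, IRI12m against NORM15m and every sham group against a NORM group therefore cross these ranges, and depth range and condition cannot be told apart there. The libraries held kidney RNA: the summed FPKM of 10 proximal tubule markers was at least 6580 in every library. Over the 500 most variable genes, IRI72h replicate 2, IRI14d replicate 2 and NORM15m replicate 1 lay nearest to a library of another group, and the calls against sham, between control groups and between time points that change when 1 of them is left out are given with the results.

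Of 90 tests of a biomarker in IRI against sham (9 genes, 10 time points), 54 were higher in IRI, 6 were lower and 30 did not pass an adjusted p of 0.05 (limma, adjusted over all 14895 genes). In none of the 60 that passed did the IRI and sham libraries overlap. Of the 60, 47 passed with any 1 library of the 2 groups compared left out. Neither count was taken over all genes, so it cannot be said whether the biomarkers differ from other genes in this. At 2 hours 3 of the 9 genes passed (1 higher, 2 lower), while 40.0% of all genes tested did, and at 4 hours 4 passed (2 higher, 2 lower) against 28.3% of all genes. At 24 hours 5 passed (4 higher, 1 lower) against 47.9%, and at 48 hours 5 were higher against 51.5%. The share of biomarkers was near that of all genes at these times. At 72 hours 7 were higher against 48.4% of all genes in either direction, at 7 days 8 were higher against 48.3%, at 14 days 8 passed (7 higher, 1 lower) against 49.8%, and at 28 days 8 were higher against 32.2%. At 6 months 6 were higher against 51.3%, and at 12 months 6 were higher against 8.81%. The median change of the 9 genes was 0.55 on the log2 scale at 24 hours, where the median over all genes was 0.18, and 2.31 at 14 days, where it was 0.09.

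**Figure D1:**
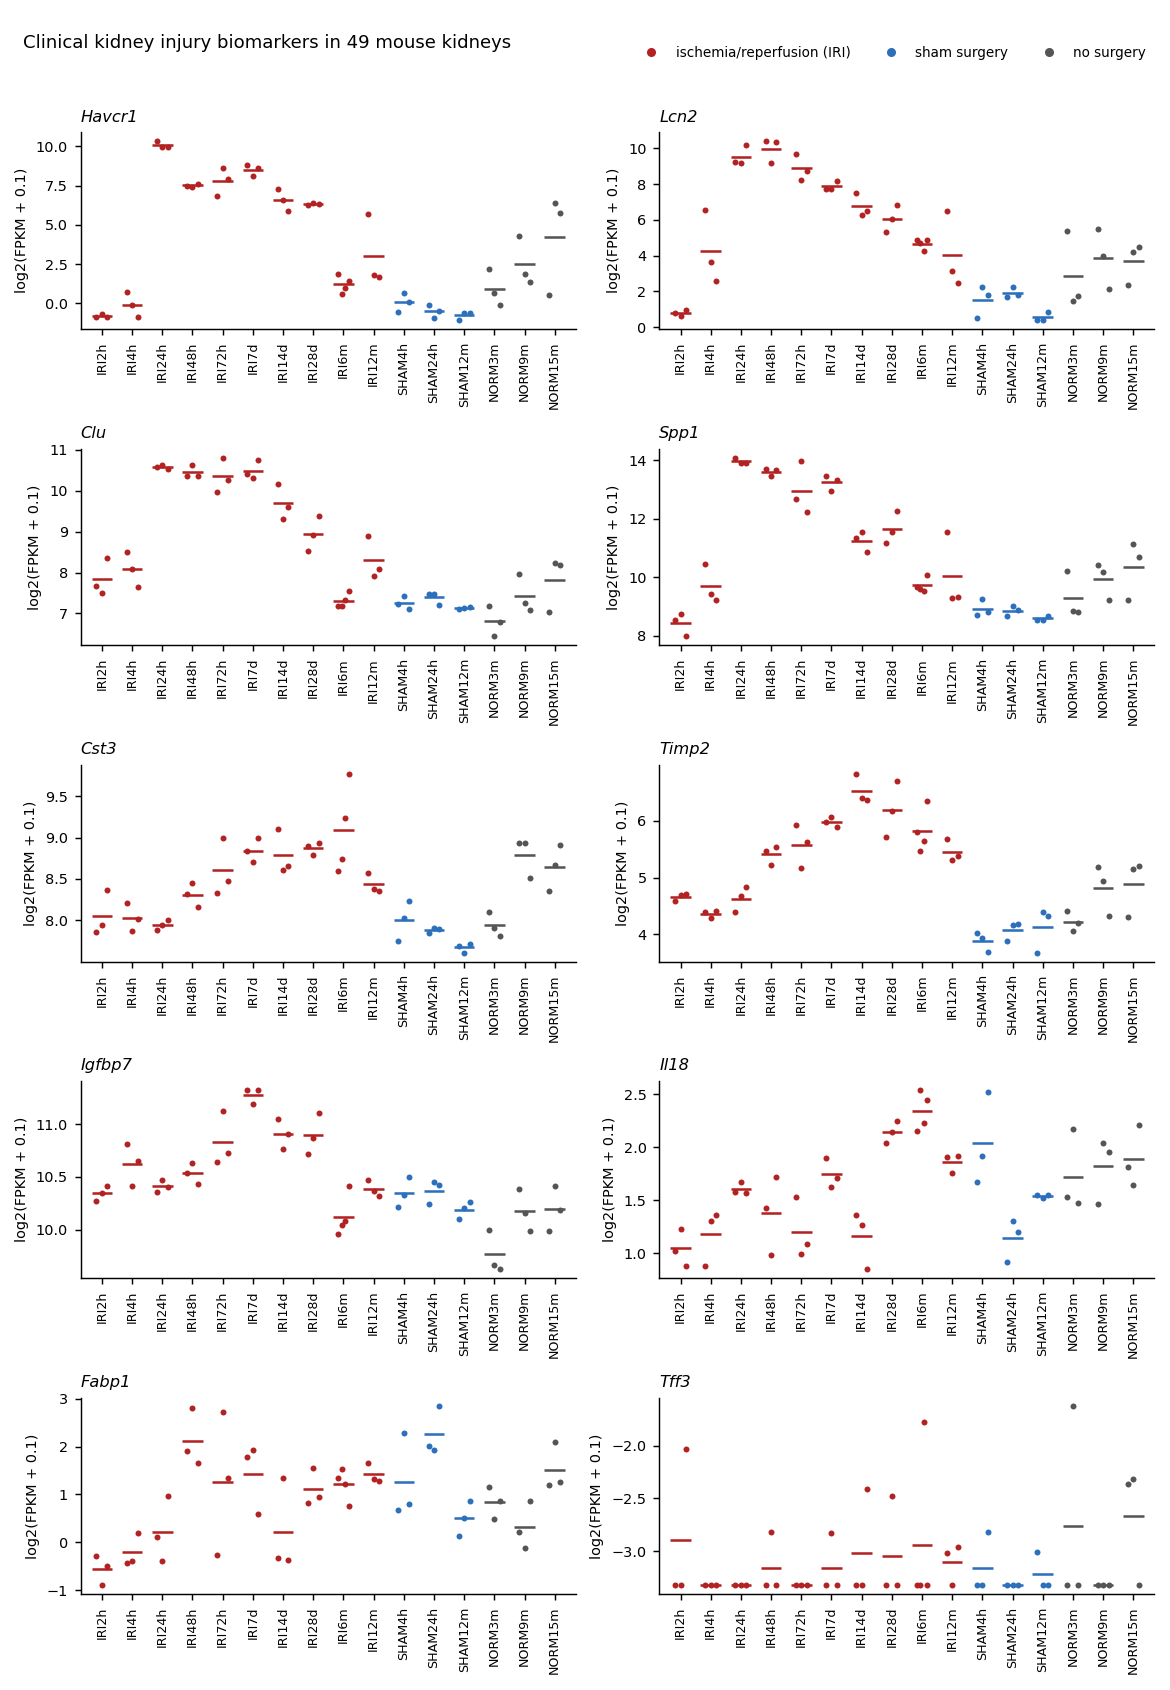
Expression of the 10 biomarker genes as log2(FPKM + 0.1) (y axis) in each of the 49 kidneys, by group (x axis), with IRI groups in order of time in red, sham groups in blue and groups without surgery in gray. Each point is 1 kidney and each bar the group mean. Havcr1, Lcn2, Clu and Spp1 stand highest at 24 or 48 hours, Timp2 at 14 days, Igfbp7 at 7 days and Cst3 at 6 months, and Tff3 is at 0 in 36 of the 49 kidneys.

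**Figure D2:**
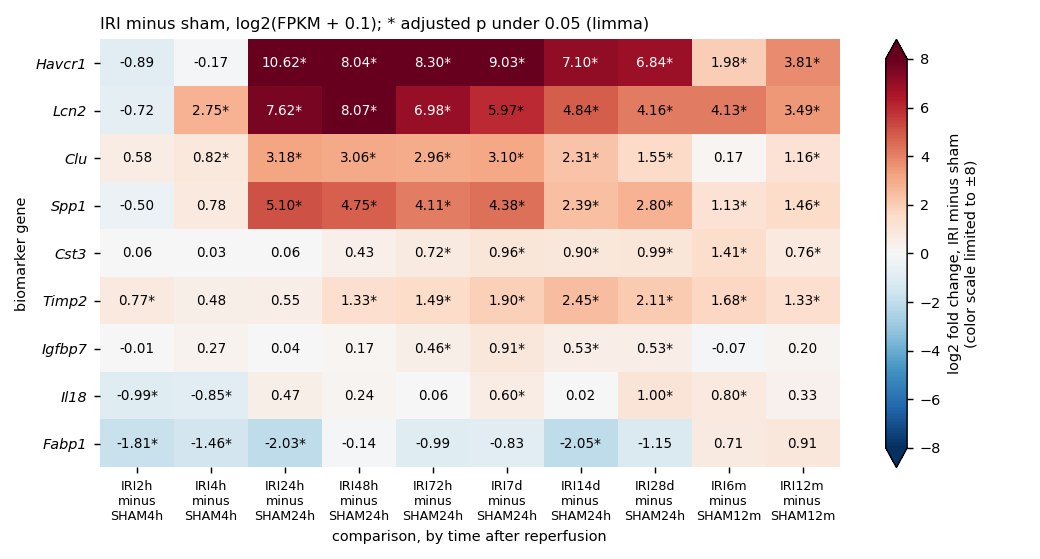
Log2 fold change of the 9 tested biomarker genes (rows) in each IRI group against its sham group (columns, by time after reperfusion), with red for higher and blue for lower in IRI and the color limited to 8 in either direction. An asterisk marks an adjusted p under 0.05 in limma. Havcr1 reaches 10.62 at 24 hours, while Fabp1 is higher at no time point past the test.

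Havcr1 (ENSMUSG00000040405.9, GRCm38 chromosome 11, 46735080 to 46779578, plus strand) encodes KIM-1, a membrane receptor for phosphatidylserine through which injured proximal tubule cells take up dying neighbors, and its ectodomain is shed into urine. It showed the widest range of the 10 genes, with a mean of 1106 FPKM at 24 hours after IRI, and did so late: at 2 hours it had 0.445, 0.517 and 0.435 FPKM and at 4 hours 1.53, 0.815 and 0.439 FPKM, against 0.576, 1.5 and 0.955 FPKM in SHAM4h kidneys. Neither difference passed the test (adjusted p = 0.46 and 0.91). At 24 hours Havcr1 had 1290, 1020 and 1020 FPKM in IRI kidneys, against 0.82, 0.425 and 0.607 FPKM in SHAM24h kidneys. All 3 IRI kidneys stood far above all 3 sham kidneys, the mean being 1790-fold higher and the log2 fold change 10.62 ± 0.90 (SE, adjusted p = 1.1e-11).

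After 24 hours Havcr1 had 180, 174 and 196 FPKM at 48 hours, 114, 392 and 241 FPKM at 72 hours, and 457, 273 and 392 FPKM at 7 days. It was thus lower at 48 than at 24 hours with no overlap (log2 fold change -2.58 ± 0.90, adjusted p = 0.032), a call lost with any single library of either group left out, at an adjusted p of up to 0.088. The increase of 0.73 at 7 days over 72 hours did not pass (adjusted p = 0.59). Levels of 159, 95 and 58.8 FPKM at 14 days and 76.7, 83.6 and 80.1 FPKM at 28 days still exceeded SHAM24h, by 7.10 and 6.84 on the log2 scale. Ranked by mean, neighbors in the order of the 16 groups overlapped in 13 of 15 pairs, the exceptions being IRI24h over the group next below it and IRI48h over the group next below it.

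Lcn2 (ENSMUSG00000026822.10, chromosome 2, 32384633 to 32388252, minus strand) encodes NGAL, a lipocalin that binds iron-carrying siderophores, is made by injured distal tubules and is also stored in neutrophils. Among Havcr1, Lcn2, Clu and Spp1, it and Clu passed the test at 4 hours. At that time it had 93.5, 12.3 and 5.87 FPKM in IRI kidneys, against 1.32, 4.6 and 3.34 FPKM in SHAM4h kidneys (log2 fold change 2.75 ± 0.88, adjusted p = 0.017). The groups did not overlap, but the call was lost without IRI4h replicate 1, the library at 93.5 FPKM (1.60, adjusted p = 0.22), and without SHAM4h replicate 1 (2.25, adjusted p = 0.087). In the same library the summed FPKM of 6 neutrophil markers was 118, against 22.0 and 22.2 in the other IRI4h kidneys, and it ranged from 5.95 to 36.6 in SHAM4h. The part of these cells in the Lcn2 value was not tested. Of the 6 markers, Mpo never exceeded 0.0558 FPKM and Ly6g never exceeded 0.424 FPKM in any library.

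At 24 hours Lcn2 had 603, 570 and 1160 FPKM, and at 48 hours 1350, 585 and 1290 FPKM, against 3.08, 4.57 and 3.44 FPKM in SHAM24h kidneys. The mean at 48 hours was the highest of any group and 291-fold that of SHAM24h (log2 fold change 8.07 ± 0.88, adjusted p = 2.1e-09). From there on values overlapped or stepped down, with 836, 296 and 431 FPKM at 72 hours, 211, 213 and 284 FPKM at 7 days, 183, 76.3 and 88.4 FPKM at 14 days and 39.9, 65.7 and 115 FPKM at 28 days. Every one of these kidneys exceeded every SHAM24h kidney. The summed neutrophil markers were 42.8 to 154 FPKM in IRI48h and 7.55 to 24.8 FPKM in IRI28d, against 2.59 to 5.79 FPKM in SHAM24h.

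Clu (ENSMUSG00000022037.10, chromosome 14, 65968483 to 65981547, plus strand) encodes clusterin, a secreted chaperone that binds unfolded proteins and cell debris. It was abundant before injury and changed within a narrower range. At 4 hours it had 361, 273 and 199 FPKM in IRI kidneys, against 151, 171 and 139 FPKM in SHAM4h kidneys (log2 fold change 0.82 ± 0.29, adjusted p = 0.030), and the call was lost without IRI4h replicate 1 (0.61, adjusted p = 0.18), without IRI4h replicate 2 (0.81, adjusted p = 0.069), without SHAM4h replicate 1 (0.81, adjusted p = 0.062) and without SHAM4h replicate 3 (0.75, adjusted p = 0.099). At 24 hours it had 1520, 1590 and 1460 FPKM in IRI kidneys, against 178, 178 and 148 FPKM in SHAM24h kidneys, a 9.05-fold difference of means (log2 fold change 3.18 ± 0.29, adjusted p = 3.7e-11).

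Clu then stayed on a plateau. It had 1320, 1580 and 1310 FPKM at 48 hours, 1010, 1790 and 1220 FPKM at 72 hours and 1370, 1270 and 1700 FPKM at 7 days, with overlap between each time and the next and no call. At 14 days it had 1140, 634 and 781 FPKM, below all 7-day kidneys (-0.80 ± 0.29, adjusted p = 0.040). That call was lost without any 1 of IRI7d replicates 1, 2 and 3 or of IRI14d replicates 2 and 3, at adjusted p values of up to 0.18.

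Spp1 (ENSMUSG00000029304.10, chromosome 5, 104435118 to 104441050, plus strand) encodes osteopontin, a secreted phosphoprotein that binds integrins and CD44 and draws macrophages. It reached the highest level of the 10 genes, 17400 FPKM at 24 hours after IRI, while in the sham groups its mean lay below that of Igfbp7. Its exons overlap those of Gm42793 on the same strand, so reads of that gene cannot be told apart from its own in the overlap. At 4 hours it had 1400, 689 and 601 FPKM in IRI kidneys, against 422, 604 and 453 FPKM in SHAM4h kidneys, with overlap and no call (0.78 ± 0.46, adjusted p = 0.22). At 24 hours it had 17400, 15300 and 15100 FPKM in IRI kidneys, against 404, 521 and 475 FPKM in SHAM24h kidneys. The means differed 34.2-fold (log2 fold change 5.10 ± 0.46, adjusted p = 4.3e-11), and no other group reached the lowest of these 3 kidneys except through IRI72h replicate 2 at 16300 FPKM.

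That library stood apart at 72 hours, where the other kidneys had 6470 and 4850 FPKM of Spp1. At 7 days Spp1 had 11300, 7900 and 10200 FPKM and at 14 days 2580, 3020 and 1870 FPKM, lower at 14 than at 7 days by -1.99 ± 0.46 on the log2 scale (adjusted p = 0.0017) with no overlap. It held at 2310, 2990 and 4920 FPKM at 28 days.

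The effects of IRI on these 4 genes at 4 and at 24 hours were compared directly, each against its own sham group, in a contrast that was chosen after the data were seen. The effect was greater at 24 hours by 10.79 ± 1.28 on the log2 scale for Havcr1 (adjusted p = 4.3e-08), by 4.87 ± 1.25 for Lcn2 (adjusted p = 0.0023), by 2.36 ± 0.41 for Clu and by 4.32 ± 0.66 for Spp1. Il18 also passed, with 1.32 ± 0.29 (adjusted p = 4.9e-04), while Cst3, Timp2, Igfbp7 and Fabp1 did not. The 5 genes that passed are read against 37.4% of all genes. Over the means of the 16 groups, Havcr1, Lcn2, Clu and Spp1 correlated with each other at Pearson r of 0.92 to 0.97, a description over points that share libraries and controls, and each correlated with Cst3 at 0.29 to 0.44.

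To set the sequence before the transcription start beside these values, the 250 bases upstream of annotated starts were read from RefSeq promoters (GRCm38.p6), which matched 8 of the 10 genes. Shown are Havcr1, Lcn2 and Spp1, which were high together from 24 hours, and Fabp1, which was below SHAM24h at 24 hours. For Havcr1 and Spp1, with 3 and 2 annotated starts, the window of the first start is given. Each runs 5′ to 3′ on the strand of the gene: Havcr1 chr11:46739973-46740222 (plus), Lcn2 chr2:32387740-32387989 (minus), Spp1 chr5:104434861-104435110 (plus) and Fabp1 chr6:71199629-71199878 (plus). Capitals mark matches, on either strand, to a TATA box (TATAAA), an AP-1 site (TGANTCA), a STAT site (TTCNNNGAA), the NF-kB site, the HNF1 site or the core site of nuclear receptors such as PPAR and HNF4 (AGGTCA, or TGACCT on the other strand). No 2 of the matches shown overlap.
Havcr1: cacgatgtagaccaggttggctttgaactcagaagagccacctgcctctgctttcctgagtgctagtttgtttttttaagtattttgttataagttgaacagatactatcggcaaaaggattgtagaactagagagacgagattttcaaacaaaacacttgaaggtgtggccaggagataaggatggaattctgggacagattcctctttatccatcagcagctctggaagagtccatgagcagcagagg
Lcn2: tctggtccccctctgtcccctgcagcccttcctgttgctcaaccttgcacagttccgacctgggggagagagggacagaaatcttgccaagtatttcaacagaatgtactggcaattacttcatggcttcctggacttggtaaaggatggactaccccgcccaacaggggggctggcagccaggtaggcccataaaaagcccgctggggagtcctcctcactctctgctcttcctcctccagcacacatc
Spp1: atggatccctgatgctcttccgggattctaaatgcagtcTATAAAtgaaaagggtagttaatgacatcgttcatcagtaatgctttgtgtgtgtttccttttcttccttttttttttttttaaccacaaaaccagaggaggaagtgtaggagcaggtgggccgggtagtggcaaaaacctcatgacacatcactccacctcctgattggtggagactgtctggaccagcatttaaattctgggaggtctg
Fabp1: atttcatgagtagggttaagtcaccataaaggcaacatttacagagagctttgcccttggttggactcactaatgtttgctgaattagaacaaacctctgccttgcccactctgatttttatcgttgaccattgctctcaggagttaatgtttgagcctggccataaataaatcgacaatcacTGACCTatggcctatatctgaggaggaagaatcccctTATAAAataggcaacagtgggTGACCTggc
The TATA box letters were in the Spp1 and Fabp1 windows, where 12.4% of 32851 promoter windows of the same length hold them, and the core site of nuclear receptors stood at 2 places in Fabp1, where 14.0% of windows hold at least 1. The letters of the AP-1, STAT and NF-kB sites, held by 6.75%, 7.02% and 4.65% of windows, and of the HNF1 site, held by 0.371%, were in none of the 4 windows. A match describes letters and not a bound site.

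Cst3 (ENSMUSG00000027447.6, chromosome 2, 148871722 to 148875692, minus strand) encodes cystatin C, a cysteine protease inhibitor that nearly all cells make at a steady rate and that serves in plasma as a measure of filtration. Its messenger RNA did not pass the test in the first 48 hours. At 24 hours it had 235, 246 and 257 FPKM in IRI kidneys, against 230, 240 and 238 FPKM in SHAM24h kidneys, a log2 difference of 0.06 with a 95% interval of -0.34 to 0.46. At 72 hours it had 321, 513 and 357 FPKM and at 28 days 477, 443 and 490 FPKM, all above SHAM24h (0.72 ± 0.20, adjusted p = 0.0027, and 0.99 ± 0.20, adjusted p = 1.4e-04). Without IRI72h replicate 2, the library at 513 FPKM, the 72-hour difference was 0.52 (adjusted p = 0.039).

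The highest mean of Cst3 was at 6 months, with 388, 426, 607 and 874 FPKM in IRI6m kidneys, against 207, 195 and 211 FPKM in SHAM12m kidneys (log2 fold change 1.41 ± 0.18, adjusted p = 1.4e-07). The IRI6m kidneys did not separate from NORM9m kidneys, which had 488, 492 and 364 FPKM (0.29 ± 0.18, adjusted p = 0.38). The IRI6m kidneys with more Cst3 also had more of 5 macrophage markers. In the same order of replicates their sums were 130, 137, 243 and 424 FPKM. SHAM12m kidneys had 55.9 to 87.2 FPKM and NORM9m kidneys 84.0 to 201 FPKM. Sums of 5 fibroblast markers rose in that order too (100, 104, 160 and 246 FPKM). So did those of 3 B cell markers (0.916, 1.57, 5.87 and 41.0 FPKM). Cystatin C is made by macrophages as well as tubule cells. The part of each of these cell types in the value was not tested. In a whole kidney, fewer cells of a type and less RNA per cell cannot be told apart.

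Timp2 (ENSMUSG00000017466.5, chromosome 11, 118301069 to 118355740, minus strand) encodes an inhibitor of matrix metalloproteinases, and its protein is read in urine together with that of Igfbp7 as a sign of cell cycle arrest in the tubule. It passed the test at 2 hours, before the other genes that rose, with 24.0, 25.7 and 26.1 FPKM in IRI2h kidneys. SHAM4h kidneys had 16.3, 15.2 and 12.9 FPKM (log2 fold change 0.77 ± 0.24, adjusted p = 0.0088). Clu was also above all SHAM4h kidneys at 2 hours but did not pass (0.58 ± 0.29, adjusted p = 0.10). At 4 hours Timp2 had 21.0, 19.5 and 21.1 FPKM, above the same sham kidneys but not past the test (0.48 ± 0.24, adjusted p = 0.13). At 24 hours the values were 20.8, 25.3 and 28.4 FPKM in IRI kidneys, against 14.6, 17.9 and 18.1 FPKM in SHAM24h kidneys, apart from each other but not past the test (0.55 ± 0.24, adjusted p = 0.053). Timp2 was then higher up to 14 days. It had 44.3, 37.2 and 46.2 FPKM at 48 hours, 62.6, 67.1 and 59.3 FPKM at 7 days and 113, 83.9 and 82.5 FPKM at 14 days, where the mean was 5.51-fold that of SHAM24h (2.45 ± 0.24, adjusted p = 3.6e-10).

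Timp2 was still above sham at 28 days (52.1, 72.0 and 104 FPKM) and at 12 months, with 51.3, 39.6 and 41.5 FPKM in IRI12m kidneys, against 12.7, 20.8 and 20 FPKM in SHAM12m kidneys (1.33 ± 0.24, adjusted p = 2.6e-04). It was the 1 gene of the 6 called at 12 months that kept its call with any 1 library of the 2 groups left out. The summed FPKM of 5 fibroblast markers was 430 to 638 in IRI14d and 70.7 to 206 in IRI12m, against 44.1 to 57.1 in SHAM24h and 18 to 32.2 in SHAM12m, and their part in the Timp2 level was not tested.

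Igfbp7 (ENSMUSG00000036256.9, chromosome 5, 77349240 to 77408041, minus strand) encodes a secreted protein that binds insulin-like growth factors. Its exons overlap those of Polr2b on the opposite strand, and the library kit does not mark strand, so their reads cannot be told apart there. It was high in every kidney, from 790 to 2560 FPKM, and of the genes that passed at 3 or more time points it had the smallest peak change against sham. At 2 hours it had 1230, 1300 and 1360 FPKM in IRI kidneys, against 1200, 1290 and 1450 FPKM in SHAM4h kidneys, a log2 difference of -0.01 with a 95% interval of -0.28 to 0.25. At 24 hours the difference was 0.04. It peaked at 7 days, with 2550, 2340 and 2560 FPKM in IRI kidneys, against 1210, 1400 and 1370 FPKM in SHAM24h kidneys (0.91 ± 0.13, adjusted p = 5.6e-07), and those 3 kidneys stood above the group next below in the order. It also passed at 72 hours (0.46, adjusted p = 0.0039), where the call was lost without IRI72h replicate 2, the library nearest to another group (0.32, adjusted p = 0.056), and at 14 and 28 days (0.53 each). At 6 and 12 months it did not (adjusted p = 0.67 and 0.52).

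The sum of the log2 values of Timp2 and Igfbp7, which mirrors the product used for the urine test, was higher in all IRI than in all sham kidneys at each of the 10 time points. The difference was 0.76 at 2 hours, 0.75 at 4 hours, 0.59 at 24 hours and 2.98 at 14 days on the log2 scale. Igfbp7 alone overlapped sham at 2, 4, 24 and 48 hours and at 6 months, while Timp2 alone overlapped it at no time point. How many of all genes, or of sums of 2 genes, lie apart from sham in this way was not counted. The sum was not compared with kidneys without surgery. In the exact 2-sided permutation test of 3 against 3 kidneys the smallest p possible is 0.1, and each time point gave it, with 0.057 for the 4 against 3 kidneys at 6 months. These p-values cannot go below the usual threshold at this sample size.

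**Figure D3:**
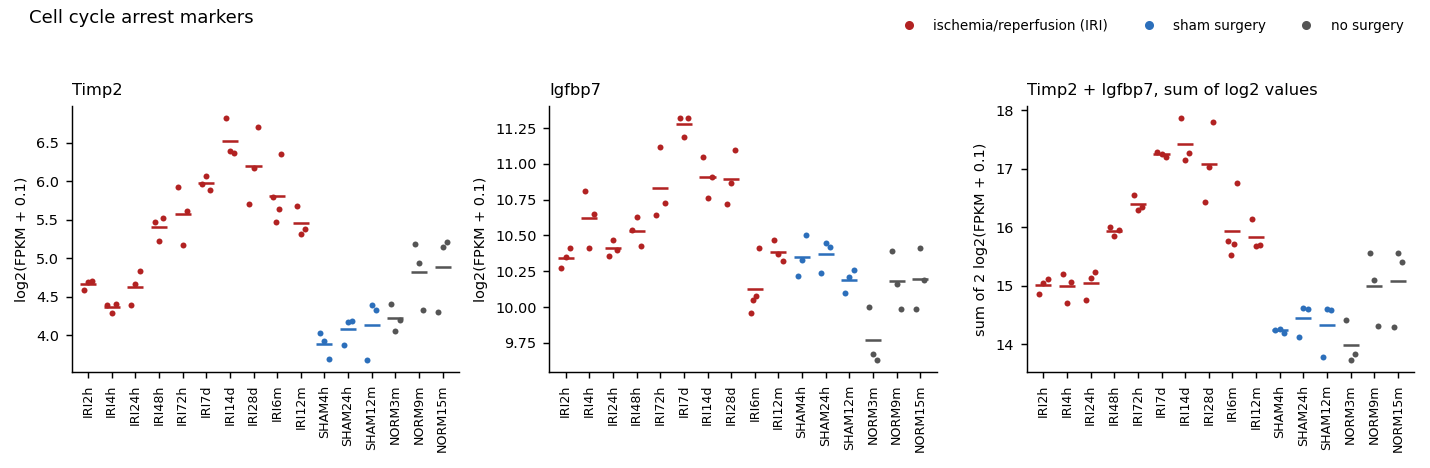
Timp2, Igfbp7 and the sum of both as log2(FPKM + 0.1) (y axes) in each kidney by group (x axes), with IRI in red, sham in blue and no surgery in gray. Points are kidneys and bars are group means. Timp2 is highest at 14 days and Igfbp7 at 7 days, and the sum is above sham in every IRI kidney, by 2.98 at 14 days.

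Il18 (ENSMUSG00000039217.8, chromosome 9, 50554827 to 50581840, plus strand) encodes interleukin 18, a cytokine that caspase-1 cleaves to its active form, so its activity depends on processing after translation. Its messenger RNA was low and was lower early after IRI. It had 1.92, 2.25 and 1.74 FPKM at 2 hours and 1.75, 2.36 and 2.47 FPKM at 4 hours in IRI kidneys, against 3.08, 3.67 and 5.63 FPKM in SHAM4h kidneys (-0.99 ± 0.21, adjusted p = 2.4e-04, and -0.85 ± 0.21, adjusted p = 0.0018). The sham groups themselves differed, with 1.79, 2.36 and 2.19 FPKM in SHAM24h, all below SHAM4h (-0.90 ± 0.21, adjusted p = 8.2e-04). The later values are set against SHAM24h, the lower of these sham groups.

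Against SHAM24h, Il18 was higher at 7 days (3.63, 2.96 and 3.18 FPKM, 0.60 ± 0.21, adjusted p = 0.015) and at 28 days (4.00, 4.29 and 4.66 FPKM, 1.00 ± 0.21, adjusted p = 2.1e-04). The 7-day call was lost without SHAM24h replicate 1 (0.49, adjusted p = 0.082) and without IRI7d replicate 1 (0.53, adjusted p = 0.067). At 14 days it had 2.47, 2.31 and 1.71 FPKM, with no difference past the test (0.02 ± 0.21), and it was lower than at 7 days and at 28 days by calls in both comparisons. At 6 months it had 4.34, 5.74, 4.58 and 5.37 FPKM in IRI6m kidneys, against 2.83, 2.76 and 2.83 FPKM in SHAM12m kidneys (0.80 ± 0.19, adjusted p = 7.8e-04).

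Fabp1 (ENSMUSG00000054422.7, chromosome 6, 71199827 to 71205023, plus strand) encodes liver-type fatty acid binding protein, which carries fatty acids and is plentiful in human proximal tubules, while the mouse kidney is known to express little. It was near the lower limit of the test here, between 0.436 and 7.07 FPKM, which corresponds to 7 to 186 reads a library. At 2 hours it had 0.725, 0.436 and 0.606 FPKM in IRI kidneys, against 1.5, 4.74 and 1.63 FPKM in SHAM4h kidneys (-1.81 ± 0.51, adjusted p = 0.0047). At 24 hours it had 0.978, 0.66 and 1.84 FPKM in IRI kidneys, against 3.92, 3.69 and 7.07 FPKM in SHAM24h kidneys (-2.03 ± 0.51, adjusted p = 0.0011). It was lower at 4 hours and 14 days as well and was higher past the test at no time. The differences were 0.71 at 6 months (adjusted p = 0.21) and 0.91 at 12 months (adjusted p = 0.36). SHAM24h, the control from 24 hours to 28 days, had the highest Fabp1 mean of the 16 groups (4.90 FPKM). Values in IRI24h (0.66 to 1.84 FPKM) and IRI14d (0.670 to 2.43 FPKM) overlapped those in NORM3m (1.30 to 2.14 FPKM).

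The calls for Fabp1 at 2 and 4 hours were lost without SHAM4h replicate 2, its highest SHAM4h library (-1.29, adjusted p = 0.064, and -0.94, adjusted p = 0.23). The 4-hour call was also lost without IRI4h replicate 1 (adjusted p = 0.095) and without IRI4h replicate 2 (adjusted p = 0.082). At 48 hours Fabp1 had 3.66, 6.89 and 3.03 FPKM, overlapping SHAM24h and above all 24-hour IRI kidneys (1.90 ± 0.51, adjusted p = 0.0056). At 72 hours it did not pass, but without IRI72h replicate 2 it was lower than in SHAM24h (-1.72, adjusted p = 0.0052). The summed FPKM of 10 proximal tubule markers, the cells that carry this gene in human kidney, was 15800 to 18600 in IRI24h and 13700 to 17800 in IRI48h, against 40400 to 42400 in SHAM24h. The part of these cells in the Fabp1 level was not tested.

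Tff3 (ENSMUSG00000024029.4, chromosome 17, 31125306 to 31129646, minus strand) encodes trefoil factor 3, a small secreted peptide of mucosal surfaces. It was listed at 0 FPKM in 36 of 49 libraries, where a count of 0 allows up to 0.0719 FPKM in the deepest and 0.407 FPKM in the shallowest of them (3 reads, counting error only). In the other 13 libraries it lay between 0.023 and 0.224 FPKM, or 1 read in 9 libraries, 2 in 3 and 3 in 1. Reads occurred in IRI, sham and NORM groups alike, and no difference was detectable at this depth.

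The late comparisons turned on the control. Havcr1 had 3.52, 1.4, 1.9 and 2.61 FPKM in IRI6m kidneys and 51.1, 3.37 and 3.09 FPKM in IRI12m kidneys, against 0.377, 0.561 and 0.555 FPKM in SHAM12m kidneys. All late IRI kidneys were above all SHAM12m kidneys (1.98 ± 0.84, adjusted p = 0.048, and 3.81 ± 0.90, adjusted p = 0.0045). Kidneys without surgery did not lie as low as SHAM12m: Havcr1 was at 19.1, 3.5 and 2.48 FPKM in NORM9m and 1.36, 83.2 and 53.9 FPKM in NORM15m. Against these, no late IRI difference in Havcr1 passed the test, and both pointed down (-1.27 ± 0.84 at 6 months, adjusted p = 0.41, and -1.18 ± 0.90 at 12 months, adjusted p = 0.34).

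IRI12m replicate 1 stood apart from the other IRI12m kidneys. It had 51.1 FPKM of Havcr1, where the others had 3.37 and 3.09, 91.2 FPKM of Lcn2, where they had 8.59 and 5.48, 2980 FPKM of Spp1, where they had 624 and 648, and 479 FPKM of Clu, where they had 241 and 270. Without it, of the 6 calls at 12 months only Timp2 was left: the log2 fold change was 2.49 for Havcr1 (adjusted p = 0.14), 2.25 for Lcn2 (adjusted p = 0.21), 0.86 for Clu (adjusted p = 0.14), 0.72 for Spp1 (adjusted p = 0.67) and 0.69 for Cst3 (adjusted p = 0.083). The call for Spp1 was also lost without any 1 SHAM12m library (adjusted p up to 0.11). In the same kidney the summed fibroblast markers were 206 FPKM against 70.7 and 92.1 in the others, the macrophage markers 241 against 146 and 173, the neutrophil markers 5.29 against 7.36 and 15.2, and the proximal tubule markers 33200 against 52400 and 40900. Their part in the biomarker levels was not tested.

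At 6 months the calls for Havcr1 and Spp1 were the weak ones. For Havcr1 the adjusted p was 0.12, 0.084 and 0.083 without SHAM12m replicate 1, 2 or 3, and 0.099, 0.065 and 0.092 without IRI6m replicate 1, 3 or 4. Spp1 had 807, 784, 742 and 1090 FPKM in IRI6m kidneys, against 375, 375 and 410 FPKM in SHAM12m kidneys (1.13 ± 0.43, adjusted p = 0.029), and its adjusted p was up to 0.071 without a SHAM12m library and 0.080 without IRI6m replicate 4. Lcn2 kept its call throughout, with 29.2, 26.2, 18.9 and 29.4 FPKM in IRI6m kidneys, against 1.23, 1.21 and 1.69 FPKM in SHAM12m kidneys (4.13 ± 0.83, adjusted p = 9.7e-05).

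Against kidneys without surgery, 1 of the 9 genes passed at 6 months (Timp2, 55.6, 44.1, 49.9 and 81.3 FPKM in IRI6m, against 36.1, 30.7 and 20 FPKM in NORM9m, 1.00 ± 0.22, adjusted p = 0.0031), where 8.32% of all genes passed. The call was lost without NORM9m replicate 3 (0.75, adjusted p = 0.056). At 12 months none of the 9 passed in limma, where 31.4% of all genes did, and 1 had an unadjusted p under 0.05 (Timp2, 0.57 ± 0.24, adjusted p = 0.063). Without NORM15m replicate 1, Havcr1 passed at 12 months and was lower in IRI12m than in NORM15m (-3.02, adjusted p = 0.0032), while Timp2 did not pass.

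**Figure D4:**
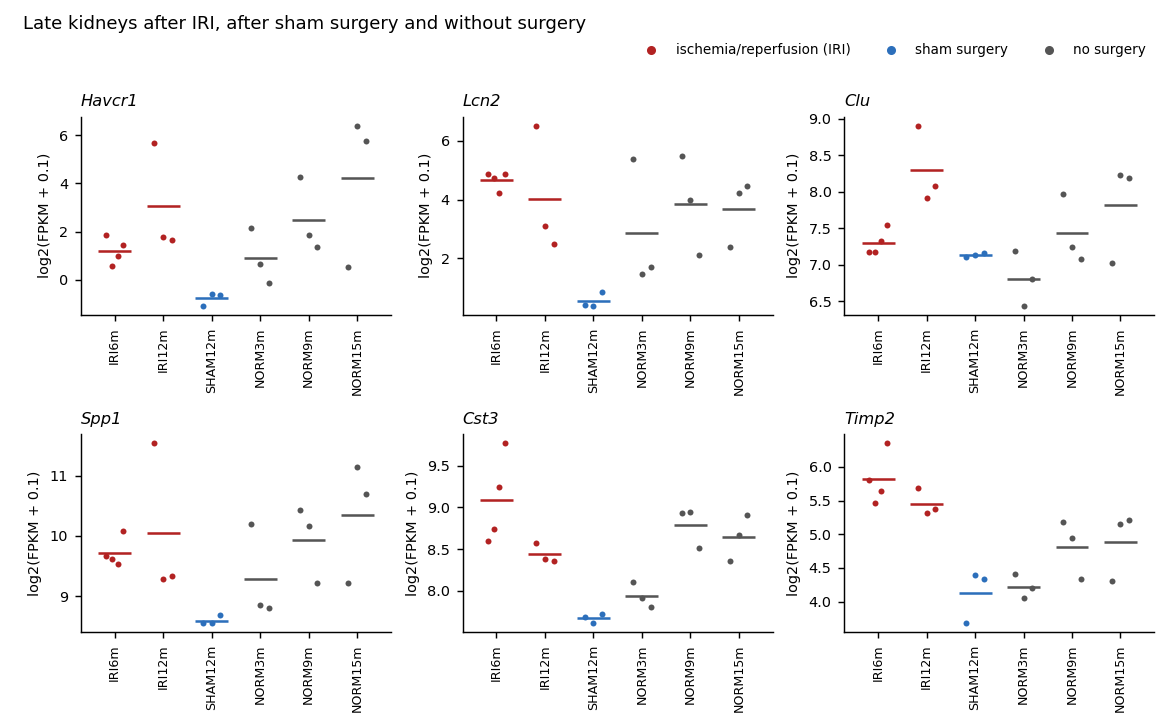
Havcr1, Lcn2, Clu, Spp1, Cst3 and Timp2 as log2(FPKM + 0.1) (y axes) in the 6- and 12-month IRI kidneys (red), the 12-month sham kidneys (blue) and the kidneys without surgery, aged 3, 9 and 15 months (gray). Points are kidneys and bars are group means. IRI12m replicate 1 stands above its group for Havcr1, Lcn2, Clu and Spp1, and for Havcr1 the SHAM12m kidneys, at 0.377 to 0.561 FPKM, lie below every kidney without surgery.

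The control groups differed among themselves. SHAM12m was below NORM15m for 5 genes, where 35.6% of all genes passed: Havcr1 (-4.98 ± 0.90, adjusted p = 6.3e-05), Lcn2 (-3.14 ± 0.88, adjusted p = 0.0057), Spp1 (-1.76 ± 0.46, adjusted p = 0.0034), Cst3 (-0.97 ± 0.20, adjusted p = 2.6e-04) and Timp2 (-0.76 ± 0.24, adjusted p = 0.012). Lcn2 had 1.23, 1.21 and 1.69 FPKM in SHAM12m, against 5.09, 18.4 and 22.2 FPKM in NORM15m, and Spp1 had 375, 375 and 410 FPKM in SHAM12m, against 597, 2250 and 1660 FPKM in NORM15m. For all but Timp2 the groups did not overlap, and the Timp2 call was lost without SHAM12m replicate 1 (adjusted p = 0.11) and without NORM15m replicate 2 or 3 (adjusted p = 0.069 and 0.090). NORM15m replicate 1 was the lowest of its group for Havcr1, Lcn2, Clu and Spp1 and had 51.2 FPKM of summed fibroblast markers, where the other NORM15m kidneys had 147 and 153. Without it the 5 calls held, and Clu was also lower in SHAM12m (-1.08, adjusted p = 0.0043).

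SHAM4h exceeded NORM3m in 1 gene, Igfbp7 (0.59 ± 0.13, adjusted p = 0.0013), against 22.2% of all genes. SHAM24h differed from NORM3m in 3 genes against 20.9% of all genes: Igfbp7 was higher (0.60 ± 0.13, adjusted p = 8.9e-04), Fabp1 was higher (1.42 ± 0.51, adjusted p = 0.042) and Il18 was lower (-0.58 ± 0.21, adjusted p = 0.039), the calls for Fabp1 and Il18 each being lost without 1 of several libraries, SHAM24h replicates 1 and 3 and NORM3m replicate 2 among them for both genes (adjusted p of up to 0.29). Between SHAM24h and SHAM4h only Il18 passed, against 33.0% of all genes. Havcr1, Lcn2, Clu and Spp1 differed between none of these pairs past the test. NORM3m replicate 1 had 41.7 FPKM of Lcn2, where the other NORM3m kidneys had 2.69 and 3.18, and its neutrophil marker sum was 59.2 FPKM, where theirs were 2.09 and 0.783. In NORM9m, replicate 1 likewise had the most Lcn2 (44.6 FPKM, where the others had 15.9 and 4.24) and the highest neutrophil sum (66.7 FPKM, where the others had 26.2 and 5.04). The kidney with the most Lcn2 did not have the highest neutrophil sum in every group. In IRI12m, replicate 1, at 91.2 FPKM of Lcn2, had the lowest sum (5.29 FPKM, where the others had 7.36 and 15.2). In IRI24h, replicate 3, at 1160 FPKM of Lcn2, had 42.3 FPKM, where the others had 38.3 and 53.7. The summed FPKM of 5 adipocyte markers was highest of the group in NORM3m replicate 1 (101, where the others had 1.2 and 55.1). So it was in NORM9m replicate 1 (15.0 against 1.32 and 0.28) and IRI24h replicate 3 (126 against 33.8 and 1.16). In IRI12m replicate 1 it was 0.444, against 0.25 and 4.54. The part of either cell type in the Lcn2 levels was not tested.

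Among kidneys without surgery, 4 genes were higher in NORM15m than in NORM3m, where 8.91% of all genes passed: Havcr1 (3.32 ± 0.90, adjusted p = 0.019), Clu (1.01 ± 0.29, adjusted p = 0.025), Cst3 (0.70 ± 0.20, adjusted p = 0.022) and Igfbp7 (0.43 ± 0.13, adjusted p = 0.034). Havcr1 had 1.36, 83.2 and 53.9 FPKM in NORM15m, against 4.39, 1.47 and 0.83 FPKM in NORM3m, so the groups overlapped, as they did for Clu and Igfbp7. Each of the 4 calls was lost with NORM3m replicate 2 or 3 or NORM15m replicate 2 or 3 left out, at adjusted p values of 0.060 to 0.18. Without NORM15m replicate 1 the 4 calls held, and Spp1 (1.63, adjusted p = 0.022) and Timp2 (0.96, adjusted p = 0.0093) passed as well. The summed macrophage markers were 89.4, 159 and 150 FPKM in NORM15m, against 55.1, 60.1 and 53.9 FPKM in NORM3m, and the summed fibroblast markers 51.2, 147 and 153 FPKM in NORM15m, against 73.4, 46.4 and 54.3 FPKM in NORM3m. Their part in these differences was not tested. NORM9m exceeded NORM3m in 2 genes, against 13.5% of all genes. Cst3 had 488, 492 and 364 FPKM in NORM9m, against 275, 240 and 224 FPKM in NORM3m (0.85 ± 0.20, adjusted p = 0.0068), and Igfbp7 was higher by 0.41 ± 0.13 (adjusted p = 0.033) with overlap, a call lost without any 1 of 4 libraries (adjusted p of up to 0.19).

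Between neighboring IRI time points the biomarkers moved in steps of different size. At 4 over 2 hours 2 genes passed, against 24.3% of all genes: Lcn2 (3.47 ± 0.88, adjusted p = 0.0038) and Spp1 (1.28 ± 0.46, adjusted p = 0.040), both higher at 4 hours and both lost without IRI4h replicate 1 (adjusted p = 0.075 and 0.23). At 24 over 4 hours 4 genes were higher, Havcr1, Lcn2, Clu and Spp1, against 56.6% of all genes. All 4 calls held with any 1 library of the 2 groups left out. At 48 over 24 hours 3 genes passed against 25.0%, with Havcr1 lower and Timp2 (0.78 ± 0.24, adjusted p = 0.014) and Fabp1 higher. The Timp2 call was lost without IRI24h replicate 1 (adjusted p = 0.078) and without IRI48h replicate 3 (adjusted p = 0.051).

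At 72 over 48 hours none of the 9 passed in limma, against 2.89% of all genes, and 1 had an unadjusted p under 0.05 (Igfbp7, 0.29 ± 0.13, adjusted p = 0.26). Without IRI72h replicate 2, Fabp1 was lower at 72 hours (-1.58, adjusted p = 0.046). At 7 days over 72 hours 2 genes were higher, against 25.7%, Igfbp7 (0.45 ± 0.13, adjusted p = 0.011) and Il18 (0.54 ± 0.21, adjusted p = 0.048), and both calls were lost without IRI72h replicate 3 (adjusted p = 0.057 and 0.15), and that of Il18 also without IRI72h replicate 2 (adjusted p = 0.14). At 14 over 7 days 4 genes were lower, against 23.8%: Clu, Spp1, Igfbp7 (-0.37 ± 0.13, adjusted p = 0.034) and Il18 (-0.58 ± 0.21, adjusted p = 0.036). Of these only Spp1 held with any 1 library of the 2 groups left out. At 28 over 14 days Il18 alone passed, higher by 0.98 ± 0.21 (adjusted p = 9.0e-04), against 18.1%. Without IRI14d replicate 2, Fabp1 was lower at 14 than at 7 days (-1.78, adjusted p = 0.013) and higher at 28 than at 14 days (1.47, adjusted p = 0.041), and Clu was lower at 28 than at 14 days (-0.95, adjusted p = 0.027).

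At 6 months over 28 days 4 genes were lower, against 50.2% of all genes: Havcr1 (-5.11 ± 0.84, adjusted p = 6.7e-06), Clu (-1.64 ± 0.27, adjusted p = 6.1e-06), Spp1 (-1.94 ± 0.43, adjusted p = 3.6e-04) and Igfbp7 (-0.77 ± 0.12, adjusted p = 3.8e-06). Both this comparison and that of 12 over 6 months cross the depth ranges. At 12 over 6 months Clu was higher (0.99 ± 0.27, adjusted p = 0.0039) and Cst3 lower (-0.65 ± 0.18, adjusted p = 0.0058), against 34.1%, and the call was lost for Clu without IRI12m replicate 1 (adjusted p = 0.073) and for Cst3 without IRI6m replicate 4 (adjusted p = 0.056).

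Across the span of 28 days over 48 hours the genes parted into 2 directions, with 7 of 9 past the test against 38.2% of all genes. Lcn2 (-3.91 ± 0.88, adjusted p = 6.3e-04), Clu (-1.51 ± 0.29) and Spp1 (-1.95 ± 0.46) were lower at 28 days, and Cst3 (0.56 ± 0.20, adjusted p = 0.022), Timp2 (0.78 ± 0.24, adjusted p = 0.0085), Igfbp7 (0.36 ± 0.13, adjusted p = 0.029) and Il18 (0.76 ± 0.21, adjusted p = 0.0036) were higher. The calls for Cst3, Timp2 and Igfbp7 were each lost without IRI28d replicate 3 (adjusted p = 0.063, 0.10 and 0.17) and those for Cst3 and Igfbp7 also without IRI48h replicate 1 or 3. The difference of Havcr1 did not pass (-1.19 ± 0.90, adjusted p = 0.30), although all its 28-day kidneys lay below all its 48-hour kidneys.

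Over the 16 group means, the protein-coding genes with the pattern most like each biomarker were Car13 (r = 0.978), Smpdl3b and Spp1 for Havcr1, Tpm4 (r = 0.976), Tmem43 and Spp1 for Lcn2, Rps16 (r = 0.98), Etv4 and Smox for Clu, and Cstb (r = 0.987), Anxa3 and Cnih4 for Spp1. For Timp2 they were Islr (r = 0.993), Mxra8 and Thbs2, for Cst3 Gmfg (r = 0.948), Fxyd1 and Cdkn2b, and for Igfbp7 Nfkbil1 (r = 0.946), Chpf and Zfp775. Islr, Mxra8 and Thbs2 encode proteins of mesenchymal cells and matrix, and Cdkn2b encodes an inhibitor of cyclin-dependent kinases. Likeness was weaker for Il18 (Zfp951, r = 0.89, and Ifit1) and for Fabp1 (2610044O15Rik8, r = 0.751, then 4930522L14Rik and Syce2). These are descriptions over groups that share libraries.

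Genes that act with the biomarkers were read from a list of 24 receptors, proteases and processing enzymes, all of which were tested. At 24 hours 14 were higher and 3 lower, at 7 days 17 were higher and 4 lower, and at 12 months 7 were higher and none lower, with medians of 0.73, 1.34 and 0.67 on the log2 scale, where the medians over all genes were 0.18, 0.17 and 0.05 and 47.9%, 48.3% and 8.81% of all genes passed in either direction. At 48 hours the 4 with the largest changes were Mmp9, a gelatinase that in humans forms a complex with the Lcn2 protein (a mean of 2.86 FPKM in IRI48h, against 0.110 FPKM in SHAM24h, 3.74 ± 0.47), Cd44, a receptor for the Spp1 protein (3.70 against 0.221 FPKM, 3.57 ± 0.44), Mmp14, a membrane metalloproteinase that works with the Timp2 protein (27.8 against 3.89 FPKM, 2.83 ± 0.40), and the integrin Itgb3, another receptor for the Spp1 protein (2.42 ± 0.33). The uptake receptors Lrp2 (-2.29) and Cubn (-1.71), which recover filtered proteins in the proximal tubule, and the Lcn2 receptor gene Slc22a17 (-1.58) were lower at 48 hours. Casp1, which encodes the enzyme that activates interleukin 18, was lower at 2 hours (-1.63), as Il18 was, and higher at 7 days (2.06) and at 12 months (1.82). The 2-hour values are set against SHAM4h, where Il18 was higher than in SHAM24h. At 2 hours 5 of the 24 genes were higher and 6 lower, where 40.0% of all genes passed.

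Of 26 relatives of the biomarkers by gene family, 19 were tested. At 48 hours 6 were higher and 3 lower, with a median of 0.09, a share below the 51.5% of all genes past the test. At 14 days 12 were higher and 1 lower, with a median of 0.88, where 49.8% of all genes passed. Timp1, the inducible relative of Timp2, had a mean of 50.8 FPKM in IRI48h, against 0.365 FPKM in SHAM24h (6.79 ± 0.85, adjusted p = 3.2e-08), while Timp3 was lower (-1.41). Cstb, an intracellular cystatin related to Cst3, was higher at 48 hours (1.64 ± 0.18), where Cst3 itself did not pass. Il33, a cytokine of the family of Il18, was higher (2.44 ± 0.37), and Igfbp5, a relative of Igfbp7, was lower (-1.79 ± 0.24).

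Of 32 other genes whose products have been read in urine or plasma after kidney injury, 31 were in the table and 30 were tested. At 48 hours 18 were higher and 8 lower, with a median of 1.51, where that of all genes was 0.02 and 51.5% of all genes passed. Egf, a growth factor of the distal nephron, had a mean of 16.3 FPKM in IRI48h, against 370 FPKM in SHAM24h (-4.52 ± 0.31, adjusted p = 5.7e-14). The fibrinogen chain gene Fgb (4.70 ± 0.88) and the monocyte chemokine gene Ccl2 (4.33 ± 0.72) were higher. At 2 hours 8 of the 30 were higher and none lower, a share below the 40.0% of all genes, and at 4 hours 12 were higher and none lower, against 28.3%. At these times Cyr61, a matrix-associated immediate early gene, was higher by 5.71 and 5.50 and the chemokine gene Cxcl1 by 3.58 and 5.03, when Havcr1 had not yet moved past the test. Cyr61 and Cxcl1 were picked after their values were seen.

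**Figure D5:**
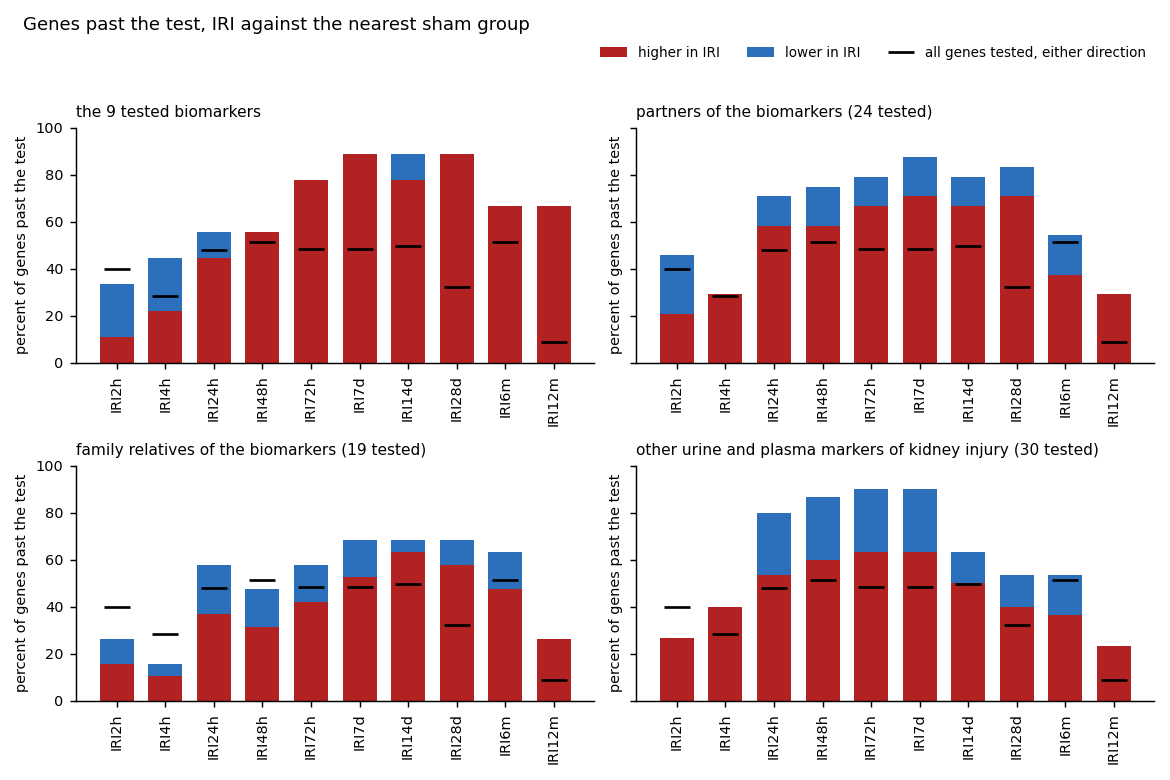
Percent of genes past the test (y axis) at each IRI time point (x axis) for the 9 tested biomarkers, their 24 partners, 19 tested family relatives and 30 other urine and plasma markers, with red for higher and blue for lower in IRI than in the nearest sham group. The black dash is the percent of all 14895 genes past the test in either direction, which is 51.5 at 48 hours and 8.81 at 12 months, where 6 of the 9 biomarkers passed.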

How the data were processed

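Total RNA of whole mouse kidneys was sequenced as poly(A) libraries, with 100 cycles from either end of a fragment (Illumina). Per the study's methods and the submitters' processing notes, reads were aligned with STAR 2.5.0b to mm10 with a GENCODE M4 (GRCm38.p3) index, duplicates were removed and reads were counted per gene. The authors deposited FPKM values of 43309 genes for each of the 49 libraries. The tool that turned counts into FPKM is not given in the sources used here, and DESeq2, which the authors used for their calls, needs counts, so it was not run here.

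Groups were taken from the labels. FPKM was tested as log2(FPKM + 0.1) with limma 3.58.1 (R 4.3.3, trend and robust variance) in 1 fit of all 49 libraries, over the 14895 genes that had 1 FPKM or above in 3 or more libraries, with Benjamini-Hochberg adjustment per comparison at 0.05. Fold changes on this scale understate changes of low genes. For each gene, p-values set a difference against 1 estimate of the spread between kidneys within groups, pooled over all 16 groups. They do not measure the spread of only the 2 groups compared. Data were simulated for 48 hours against SHAM24h over 14895 genes, with independent noise for each gene. Of 100 genes changed by a log2 of 1, 66 were called, and of 100 changed by a log2 of 2, 93 were called. No other gene was changed there, while 51.5% of all genes passed in the data, so these rates need not hold for the real comparison. Depth was estimated from low FPKM values times exon length (GENCODE M21) over 23069 genes with the same model version in both annotations. At least 90.8% of low values in each library then came within 0.1 of a whole read. Coordinates are from GENCODE M21 (GRCm38).

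Named genes are all 10 biomarkers, in each list of other genes the 4 that changed most, past the test, at 48 hours, and the 3 protein-coding genes most like each biomarker over the 16 group means. Of the genes this rule names, 2 are not reported here. Genes named beyond this rule (Lrp2, Cubn, Slc22a17, Casp1, Timp3, Cyr61, Cxcl1) were chosen after their values were seen. The biomarkers, the lists and the tests were chosen with earlier results of these data known. Alternatives were a pseudocount of 1 or 0.01, no filter, quantile normalization, no trend and robust variance, a fit of the 2 groups alone, a replicate block and other controls. Each library of the 2 groups compared was also left out in turn, while libraries of the other groups stayed in. A fit without 3 libraries was added after the data were seen.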

Additional observations from a re-analysis of the deposited data

Results flagged for a closer look

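The change in the IRI effect between 4 and 24 hours, each against its own sham group, passed limma's test for 5 of the 9 tested biomarkers. On the log2 scale the effect at 24 hours exceeded that at 4 hours by 10.79 for Havcr1, 4.87 for Lcn2, 4.32 for Spp1, 2.36 for Clu and 1.32 for Il18. For Il18 the effect itself was below sham at 4 hours (-0.85 ± 0.21) and not past the test at 24 hours (0.47 ± 0.21), and its 2 sham groups differed from each other.

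In IRI6m, the group of 4 kidneys, Tff3 was at 0.192 FPKM in replicate 3 and at 0 in the other 3 kidneys, so that 1 library lay apart from equal values (a gap to range ratio of 1.0). The value stands for 1 read. With the other kidneys of a group at 0, any read gives this ratio, and 8 other groups also had 1 library above 0, so the ratio says nothing of this kidney beyond its 1 read.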

How the results depend on the processing

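Most directions held under the alternatives tried. Among differences past the test with either control, changes of direction came with the choice of control. With all 9 sham kidneys as control, Il18 at 14 days was -0.41. With kidneys without surgery as control, Igfbp7 at 2 hours was 0.58, Fabp1 at 48 hours 1.28, Il18 -0.52 at 72 hours and -0.56 at 14 days, Havcr1 -1.27 at 6 months and -1.18 at 12 months, Spp1 -0.22 at 6 months and -0.30 at 12 months, and Cst3 -0.21 at 12 months (log2). Of differences past the test with neither control, the sign also turned for 8 with kidneys without surgery (of Fabp1, Il18 and Clu) and for 7 with all 9 sham kidneys (of Fabp1, Il18, Igfbp7 and Havcr1). The cause was not tested.

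With single libraries left out, the number of biomarkers past the test ranged from 1 to 4 at 4 hours (4 with all libraries) and from 1 to 6 at 12 months (6 with all) against sham. It ranged from 0 to 1 for IRI12m minus NORM15m (0) and for IRI6m minus NORM9m (1), from 1 to 3 for NORM9m minus NORM3m (2) and for SHAM24h minus NORM3m (3), from 0 to 6 for NORM15m minus NORM3m (4) and from 1 to 2 for SHAM24h minus SHAM4h (1). Between IRI time points it ranged from 0 to 2 for 4 over 2 hours (2), from 1 to 2 for 48 over 24 hours (3), from 0 to 1 for 72 over 48 hours (0) and for 7 days over 72 hours (2), from 1 to 4 for 14 over 7 days (4), from 1 to 3 for 28 over 14 days (1) and for 12 over 6 months (2), and from 4 to 7 for 28 days over 48 hours (7).

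Quantile normalization gave 1 gene for NORM9m minus NORM3m, 2 for NORM15m minus NORM3m, 1 for 4 over 2 hours and 1 for 7 days over 72 hours, and it shifted the median of all genes by up to -0.22 at 7 days against sham. Without the filter, the count was 1 for SHAM24h minus NORM3m, NORM9m minus NORM3m, 4 over 2 hours, 7 days over 72 hours and 14 over 7 days. A pseudocount of 1 gave 1 for 7 days over 72 hours. Fits of the 2 groups alone, which have fewer samples, gave 0 for IRI6m minus NORM9m, NORM15m minus NORM3m, 4 over 2 hours, 7 days over 72 hours and 28 over 14 days, 1 for NORM9m minus NORM3m and 2 for 14 over 7 days.

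Without IRI72h replicate 2, IRI14d replicate 2 and NORM15m replicate 1 together, an alternative chosen after seeing the data, the count was 1 for IRI12m minus NORM15m, 72 over 48 hours and 7 days over 72 hours, and 3 for 28 over 14 days. Same-numbered kidneys share only a number: in none of the 10 comparisons with sham did their deviations correlate above 0.1 for every number. A fit with the replicate block gave 1 gene for 7 days over 72 hours. It lost the 6-month calls of Havcr1 (1.90, adjusted p = 0.097) and Spp1 (1.01, adjusted p = 0.078) against SHAM12m. With 10633049 to 23723162 reads in the shallowest libraries, depth limits Tff3 and Fabp1 most.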
